A study of Rattus norvegicus with 32 samples.

Results

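The 7 genes described here, Fkbp5, Tsc22d3, Per1, Sgk1, Klf9, Dusp1 and Errfi1, are genes that glucocorticoid hormone is known to switch on in many tissues, and their transcripts were followed in the livers of rats that had breathed ozone. They were picked by gene symbol from the array's annotation, out of 13438 genes with a probe set of their own (a probe set is the group of short probes that measures 1 transcript). Where a gene had several such probe sets, the brightest over all arrays stood for it. All 7 were measured and all 7 passed the filter on dim probe sets, which left 11629 genes to test.

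All animals were male Wistar Kyoto (WKY) rats, 10 weeks old and weighing 250 to 300 g. Animals breathed 1 ppm ozone, a reactive oxidant found in smog, for 6 h per day, and the controls breathed filtered air (FA) for the same hours. The 32 arrays fall into 6 groups, with livers taken when the first exposure ended (6 ozone and 6 air, called day 1 here), when the exposure of the following day ended (5 ozone and 5 air, day 2), and 18 h after that exposure (5 ozone and 5 air, called 18 h). No labelled treatment other than the inhaled gas separates the groups. The labels do not say that every array holds a different animal, so p-values measure the spread between these samples. The 18 h livers were taken at another hour of the day than the day 2 livers. The part of that hour in comparisons between the 2 times was not tested.

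Glucocorticoids such as corticosterone, the main glucocorticoid of the rat, are released by the adrenal cortex under stress. The hormone enters cells and binds the glucocorticoid receptor, which waits in the cytoplasm in a complex with the chaperone Hsp90, moves to the nucleus and binds DNA near its target genes. In the liver the hormone promotes gluconeogenesis and amino acid breakdown, and its release and the clock in liver cells are both tied to the time of day. The 7 genes cover several arms of the response: Fkbp5 damps the receptor itself, Klf9 is a transcription factor, Tsc22d3 and Dusp1 restrain inflammatory signalling, Sgk1 and Errfi1 act in growth factor and kinase signalling, and Per1 belongs to the circadian clock.

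Values are probe-set intensities in arbitrary linear units, and they are compared only within a gene. Array medians lay between 147 and 161 units. The ratio of 3′ to 5′ signal of the beta-actin control probe sets, a check on RNA quality, was highest on 18 h ozone replicate 5. It was 3.50 there and between 2.16 and 2.89 on all other arrays. Every member on every array, between 175 and 6268 units, was brighter than the median of the probes for nonspecific binding, which lay between 54.3 and 92.0 units and was lowest on the day 1 ozone replicate 3 and day 1 air replicate 2 arrays. All 9 hepatocyte markers with a probe set were bright, with albumin (Alb) the brightest gene of all. On 7 arrays the genes as a whole deviated more like another group than like their own. The farthest of these were day 2 ozone replicate 5, which correlated at -0.25 with its own group and 0.66 with 18 h ozone, and day 2 air replicate 5, at -0.52 with its own group and 0.60 with day 2 ozone. Calls of members that changed without either of these 2 arrays are given with and without it.

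At day 1, Fkbp5 and Klf9 rose and Tsc22d3 and Errfi1 fell in ozone livers, so that 4 of the 7 members passed the test (limma, Benjamini-Hochberg adjusted p under 0.05 over all genes), whereas 29.5% of all tested genes passed it. For 2 of the 7 (Fkbp5 and Klf9) every day 1 ozone array lay above every air array, as for 7.20% of all genes, and for 1 (Errfi1) every ozone array lay below, as for 8.76%. At day 2 no member passed, beside 0.705% of all genes, and the 7 adjusted p-values lay between 0.073 and 1. At 18 h, Klf9 and Errfi1 were lower in ozone livers and passed, 2 of 7 members, beside 1.17% of all genes. On its brightest probe set, the ozone and air arrays of every member overlapped at day 2 and at 18 h. At these times 1.49% and 2.76% of all genes had groups that did not overlap. On the second Klf9 probe set the 18 h groups did not overlap, with 175 to 228 units in ozone livers and 259 to 300 in air livers.

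The size of the members' differences, regardless of direction, had a median of 0.31 on the log2 scale at day 1, 0.12 at day 2 and 0.36 at 18 h. Over all tested genes that median was 0.07 at day 1, 0.04 at day 2 and 0.04 at 18 h. The members were bright, between percentiles 82.0 (Per1) and 99.6 (Errfi1) of mean level among all probe sets. Differences of dim genes come out too small on these arrays, and the 2 sets were not matched for brightness. The part of brightness in the gap between these medians was not tested. The signed median of the members was 0.01 at day 1, 0.00 at day 2 and -0.36 at 18 h. The members were thus split at day 1, while at 18 h the difference was below 0 for all 7, with 2 past the test; those of Sgk1 and Dusp1 turned above 0 without a single array each (18 h air replicate 2 for Sgk1, 18 h ozone replicate 1 or 5 for Dusp1).

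**Figure D1:**
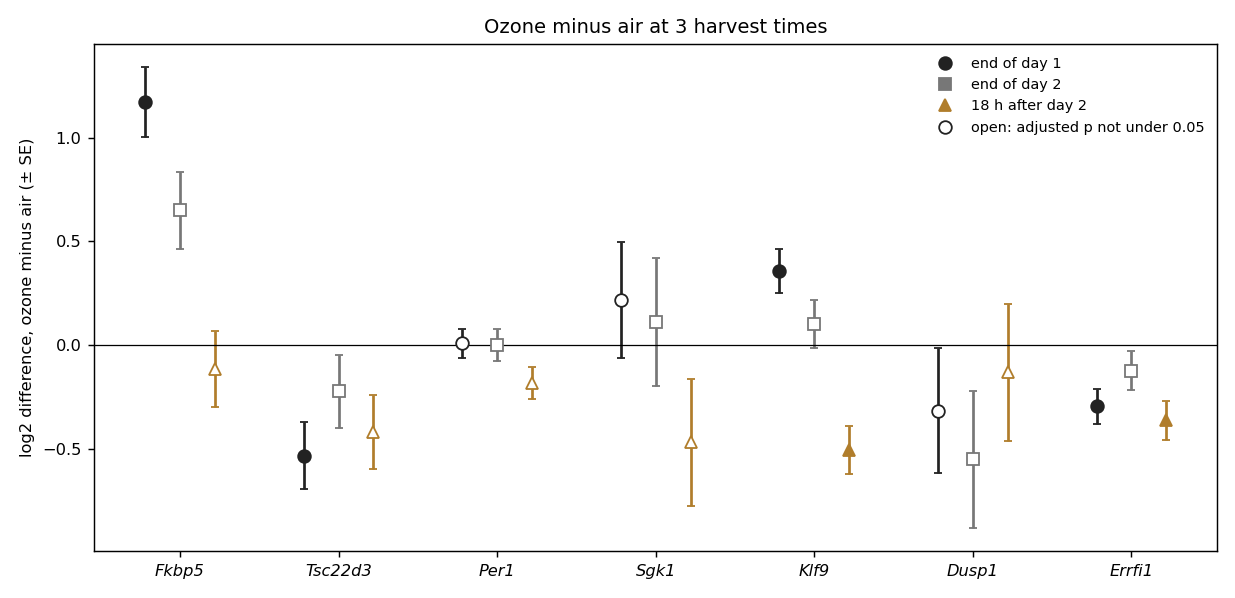
Log2 difference of ozone minus air for each of the 7 genes at 3 harvest times, with the standard error from limma as bars; filled symbols passed the test at an adjusted p under 0.05. Fkbp5 stands at 1.17 at day 1 and at -0.11 at 18 h, and Klf9 at 0.36 at day 1 and at -0.51 at 18 h.

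Promoter sequence was available for all 7 genes, in 11 windows of 300 bases around an annotated start (RefSeq, build GRCr8). The 150 bases before the start are shown for the 4 members that changed at day 1, to let the genes that rose and those that fell be read side by side. Tsc22d3 has 3 annotated starts, of which the most downstream is shown, the only one of them with a match. Each is written 5′ to 3′ on the strand of the gene, and capitals mark the letters TGACG or their reverse complement CGTCA, the core of the element through which cyclic AMP acts.
Fkbp5, chr20:6543556-6543705, minus strand: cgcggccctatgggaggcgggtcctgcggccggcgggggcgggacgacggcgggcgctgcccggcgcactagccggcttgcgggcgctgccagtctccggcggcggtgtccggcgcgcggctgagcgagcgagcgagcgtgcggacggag
Klf9, chr1:230126496-230126645, plus strand: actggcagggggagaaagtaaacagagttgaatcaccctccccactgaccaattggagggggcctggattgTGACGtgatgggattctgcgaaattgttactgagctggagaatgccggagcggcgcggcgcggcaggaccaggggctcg
Tsc22d3, chrX:109010035-109010184, minus strand: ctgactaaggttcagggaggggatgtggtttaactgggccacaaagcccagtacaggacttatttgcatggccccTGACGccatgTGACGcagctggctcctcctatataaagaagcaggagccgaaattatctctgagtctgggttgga
Errfi1, chr5:166606691-166606840, plus strand: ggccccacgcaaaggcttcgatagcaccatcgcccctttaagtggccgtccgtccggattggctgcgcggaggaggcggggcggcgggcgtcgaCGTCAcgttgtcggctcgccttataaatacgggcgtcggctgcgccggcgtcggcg
Klf9, which rose, holds the letters 79 bases before its start, whereas Tsc22d3, which fell, holds them at 75 and at 65 bases before and Errfi1, which also fell, at 56 bases before on the opposite strand. Fkbp5 holds none. Dusp1 holds them as well, at 172 bases before its start and again at 124 bases before, there within the full palindrome TGACGTCA. Of the 11 windows of the members 4 thus have a match, 1 for each of 4 genes, and 21.2% of all 33469 promoter windows of that length do. The full palindrome occurs in 1.83% of windows.

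The glucocorticoid response element, searched on both strands as GNACA and TGTNC with any 3 bases between them, and its shorter form AGAACA, likewise on both strands, matched 0 of the 11 windows of the members. These letters occur in 0.439% and 20.7% of all windows. The result concerns these letters in these bases alone. For Fkbp5, Per1 and Sgk1 every window lies inside the annotated gene, so the bases before the outermost start of these genes were not searched. Among other motifs, TATAAA (14.2% of windows) lies 44 bases before the most downstream start of Tsc22d3, 35 bases before that of Errfi1, and before 2 of the 3 starts of Sgk1, at 55 and at 33 bases. CACGTG, the E-box that clock proteins bind (6.42% of windows), lies 107 bases before the start of Dusp1. It is not in the only window of Per1, at chr10:54304126-54304425, which lies inside the gene (54299002 to 54313804).

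Fkbp5 encodes an immunophilin that joins the receptor's Hsp90 complex and lowers its affinity for hormone, a feedback brake on the response. Its transcript was higher in ozone livers at day 1, with a lowest value of 423, a median of 566 and a highest of 634 units, against 175, 241 and 296 units in air livers (Entrez gene 361810). Every ozone array lay above every air array. The log2 difference was 1.17 ± 0.17 (SE, n = 6 and 6), or 2.25-fold, with a limma adjusted p of 4.2e-06, and stayed between 1.09 and 1.24 when any single day 1 array was left out.

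At day 2 the 5 ozone livers had 448, 347, 536, 487 and 250 units of Fkbp5, and the 5 air livers had 229, 215, 215, 231 and 390. Apart from replicate 5 of each group, the groups did not overlap: the ozone replicate 5 array was low and the air replicate 5 array was high. The difference was 0.65 ± 0.18 (SE, n = 5 and 5; limma adjusted p = 0.073) with all arrays. It was 0.81 (adjusted p = 0.013) without day 2 ozone replicate 5 and 0.80 (adjusted p = 0.0043) without day 2 air replicate 5. With these 2 arrays and 18 h air replicates 1 and 5 left out, 4 of the 7 arrays that lay closer to another group, it was 0.96 (adjusted p = 8.7e-05). Arrays dropped for resembling another group widen the gap between groups by their choice. The 4 were also not the 4 least like their own group. Day 2 air replicate 1 was kept at -0.02 with its own group, against 0.26 and 0.10 for the dropped 18 h air replicates 1 and 5.

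At 18 h the ozone livers had 452, 311, 262, 284 and 252 units and the air livers 290, 352, 389, 389 and 259. The groups overlapped over most of their range, and a single ozone liver, replicate 1, gave the highest value. The Fkbp5 difference was -0.11 ± 0.18 (SE, n = 5 and 5; limma adjusted p = 0.89), with a 95% interval of -0.49 to 0.26. Ordered by mean, the levels ran day 1 ozone, day 2 ozone, 18 h air, 18 h ozone, day 2 air and day 1 air, and the ranges of each pair of neighbours overlapped.

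The ozone effect on Fkbp5 at day 2 minus that at day 1 was -0.52 ± 0.25 on the log2 scale, and this test of the difference itself did not pass (limma adjusted p = 0.24). The effect at 18 h minus that at day 2 was -0.76 ± 0.26 and did not pass either (adjusted p = 0.39). Without day 2 air replicate 5 that last difference was -0.92, with an adjusted p of 0.047. Within the ozone livers, Fkbp5 at day 2 minus day 1 was -0.44 ± 0.18 (limma adjusted p = 0.095; no member passed, beside 14.5% of all genes), and -0.54 without day 2 ozone replicate 3 (adjusted p = 0.045). The second Fkbp5 probe set, fitted on its own, gave 1.15 ± 0.12 at day 1 (limma adjusted p = 6.5e-08), 0.51 ± 0.13 at day 2 (adjusted p = 0.067) and -0.14 ± 0.13 at 18 h (adjusted p = 0.86).

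**Figure D2:**
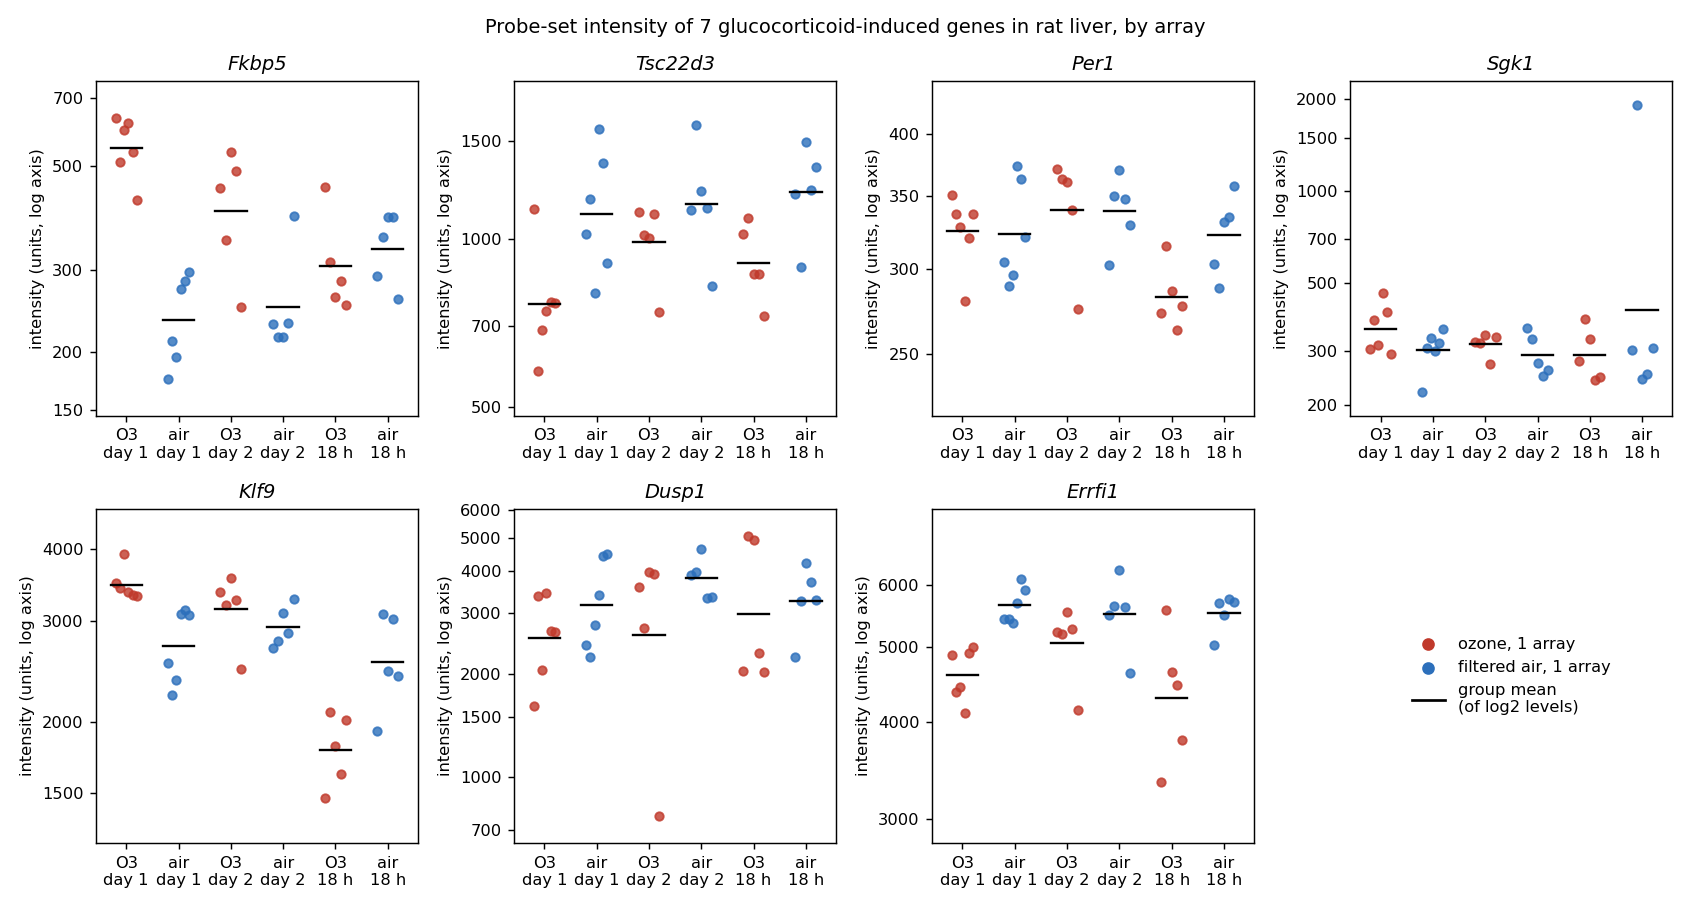
Probe-set intensity (arbitrary units, log axis) of the 7 genes on each of the 32 arrays, 1 point per array, with ozone left of air at each harvest time and a bar at the group mean of the log2 levels. For Fkbp5 the 6 day 1 ozone livers sit between 423 and 634 and the 6 day 1 air livers between 175 and 296, and for Sgk1 a single 18 h air liver reads 1915.

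Klf9 encodes a Krüppel-like zinc finger transcription factor that takes part in relaying the hormone signal to secondary target genes. It too was higher in ozone livers at day 1, where the lowest, median and highest values were 3318, 3395 and 3924 units, against 2230, 2799 and 3134 in air livers (Entrez gene 117560). The groups did not overlap, although the gap between the lowest ozone and the highest air liver was small beside the spread of the air livers. The difference was 0.36 ± 0.11 (SE, n = 6 and 6), or 1.28-fold, with a limma adjusted p of 0.01. Without the 2 day 1 arrays that were low in nonspecific-binding signal, it was 0.26 with an adjusted p of 0.086.

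At day 2 Klf9 read 3364, 3194, 3562, 3265 and 2467 units in ozone livers and 2687, 2765, 3096, 2858 and 3279 in air livers. The groups overlapped through replicate 5 of both, in the same pattern as for Fkbp5. The difference was 0.10 ± 0.12 (SE, n = 5 and 5; limma adjusted p = 0.86).

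At 18 h the order was turned: ozone livers had 1471, 2078, 1815, 1619 and 2015 units, and air livers had 1924, 3087, 2455, 3017 and 2401. The air replicate 1 liver lay within the range of the ozone livers and the other 4 lay above it. Klf9 was 1.42-fold lower in ozone livers (log2 difference -0.51 ± 0.12, SE, n = 5 and 5; limma adjusted p = 0.025). The call was lost, with the difference still between -0.52 and -0.44, without air replicate 2, 3 or 4 or ozone replicate 1, 3 or 4 (adjusted p between 0.062 and 0.1), and it was also lost in a fit to the 18 h arrays alone (adjusted p = 0.12). The second Klf9 probe set gave 0.35 ± 0.10 at day 1 (adjusted p = 0.0074), 0.08 ± 0.11 at day 2 (adjusted p = 1) and -0.46 ± 0.11 at 18 h (adjusted p = 0.033), each by limma on single probe sets.

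The 18 h ozone livers held the least Klf9 of the 6 groups, and the order by mean above them was day 1 ozone, day 2 ozone, day 2 air, day 1 air and 18 h air, with overlap between all neighbours. Klf9 fell in ozone livers between day 2 and 18 h, to 1799 ± 257 units at 18 h, against 3170 ± 417 units at day 2 (SD, n = 5 each). That log2 difference was -0.81 ± 0.12 (limma adjusted p = 0.00012; 11.3% of all genes passed in this comparison), and it kept between -0.90 and -0.74 when any single array was left out. Without day 2 ozone replicate 5 in this comparison, Fkbp5 passed as well, at -0.53 (adjusted p = 0.035), against -0.37 ± 0.18 with all arrays (adjusted p = 0.22). Errfi1 also passed without it, at -0.30 (adjusted p = 0.022), against -0.23 ± 0.09 (adjusted p = 0.11), and passed without 18 h ozone replicate 2, at -0.33 (adjusted p = 0.017). In air livers no member passed between day 2 and 18 h (0.120% of all genes did) or between day 1 and day 2 (0.00860% of all genes). The change of the ozone effect on Klf9 between day 2 and 18 h was -0.61 ± 0.16 and did not pass (adjusted p = 0.27), nor did any other member (0.00860% of all genes passed). Without day 2 air replicate 5 it was -0.65 (adjusted p = 0.039), and without day 2 ozone replicate 5 it was -0.70 (adjusted p = 0.03).

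**Figure D3:**
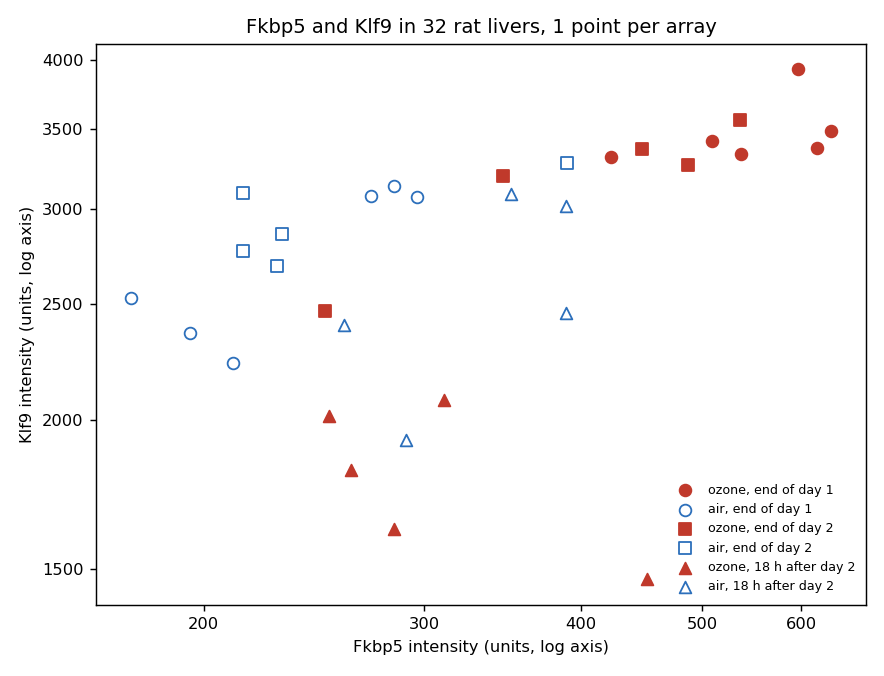
Fkbp5 against Klf9 intensity (arbitrary units, both axes log) on the 32 arrays, filled red for ozone and open blue for air. The 6 day 1 ozone livers lie at the upper right, at 423 units or more of Fkbp5 and 3318 or more of Klf9, and the 5 ozone livers at 18 h lie at the bottom, at 2078 units of Klf9 or less.

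Tsc22d3 encodes GILZ, a leucine zipper protein that binds and restrains inflammatory transcription factors and carries part of the anti-inflammatory action of glucocorticoids. Unlike Fkbp5 and Klf9, it was lower in ozone livers at day 1, with lowest, median and highest values of 580, 756 and 1132 units, against 800, 1101 and 1575 in air livers (Entrez gene 83514). Of the 6 ozone livers 5 lay below every air liver, and ozone replicate 1, at 1132, lay among the air livers. The difference was -0.53 ± 0.16 (SE, n = 6 and 6; 1.45-fold lower; limma adjusted p = 0.012). It was -0.48 with an adjusted p of 0.051 without the 2 arrays low in nonspecific-binding signal.

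At day 2 the ozone livers had 1120, 1017, 1007, 1109 and 740 units of Tsc22d3 and the air livers 1127, 1600, 1218, 1136 and 824. At 18 h they had 1023, 1092, 865, 865 and 730 in ozone and 1207, 891, 1494, 1225 and 1346 in air. The day 2 ozone livers lay just under the air livers apart from the low replicate 5 of both, and at 18 h only the air replicate 2 liver fell within the range of the ozone livers. The differences were -0.22 ± 0.18 at day 2 (limma adjusted p = 0.72) and -0.42 ± 0.18 at 18 h (adjusted p = 0.3; SE, n = 5 and 5 at each time), and neither passed. The 3 air groups had the highest means of Tsc22d3 and the 3 ozone groups the lowest, in the order 18 h air, day 2 air, day 1 air, day 2 ozone, 18 h ozone and day 1 ozone, with overlap between all neighbours.

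Dusp1 encodes a phosphatase that switches off MAP kinases and is also an immediate early gene that stress and growth signals induce. At day 1 the lowest, median and highest values were 1610, 2659 and 3454 units in ozone livers and 2241, 3084 and 4479 in air livers (Entrez gene 114856). At day 2 they were 3583, 2721, 3956, 3911 and 767 in ozone and 3873, 3957, 4630, 3330 and 3350 in air. At 18 h ozone livers read 2038, 5056, 4926, 2297 and 2020, and air livers 2236, 3258, 4208, 3699 and 3282.

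The ozone and air ranges of Dusp1 overlapped at all 3 times, with day 2 ozone replicate 5 the lowest of all 32 arrays and the 18 h ozone livers split into 2 above all 5 air livers and 3 below all of them but replicate 1. None of the differences passed: -0.31 ± 0.30 at day 1 (limma adjusted p = 0.47), -0.55 ± 0.33 at day 2 (adjusted p = 0.54) and -0.13 ± 0.33 at 18 h (adjusted p = 0.94). The day 2 value was -0.12 without ozone replicate 5, and the 18 h value was 0.01 without ozone replicate 1 or ozone replicate 5. The 95% interval at day 1 ran between -0.93 and 0.30. The second Dusp1 probe set gave -0.26 ± 0.33 at day 1, -0.40 ± 0.36 at day 2 and -0.22 ± 0.36 at 18 h. By mean, the order was day 2 air, 18 h air, day 1 air, 18 h ozone, day 2 ozone and day 1 ozone, all neighbours overlapping.

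Errfi1 encodes Mig-6, an adaptor that inhibits the epidermal growth factor receptor. Its probe set (Entrez gene 313729) varied little within a group at day 1, where ozone livers had a lowest value of 4115, a median of 4656 and a highest of 4993 units, against 5365, 5560 and 6110 in air livers. The groups did not overlap. The difference was -0.29 ± 0.09 (SE, n = 6 and 6; 1.23-fold lower; limma adjusted p = 0.0087), and it passed with any single day 1 array left out.

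At day 2 Errfi1 read 5216, 5193, 5548, 5273 and 4149 units in ozone livers and 5488, 5639, 6268, 5620 and 4631 in air livers, a difference of -0.12 ± 0.09 (limma adjusted p = 0.68). At 18 h it read 3354, 5575, 4643, 4463 and 3791 in ozone and 5026, 5687, 5500, 5767 and 5709 in air. Of the 18 h ozone livers 4 lay below every air liver, and ozone replicate 2 lay among them. The 18 h difference was -0.36 ± 0.09 (SE, n = 5 and 5; 1.29-fold lower; limma adjusted p = 0.047), close to the threshold. It no longer passed without air replicate 2, 3, 4 or 5 or ozone replicate 1, 3, 4 or 5 (difference between -0.39 and -0.27, adjusted p between 0.076 and 0.15) and likewise with only the 18 h groups in the fit (adjusted p = 0.17), with each array centred on its median (0.065), with the replicate number as a block (0.062), without the 2 arrays low in nonspecific-binding signal (0.06), without the filter on dim probe sets (0.053) and with the mean of all probe sets of a gene (0.051). The order by mean was day 1 air, 18 h air, day 2 air, day 2 ozone, day 1 ozone and 18 h ozone, with the air groups above the ozone groups and overlap between neighbours.

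Because whole liver was measured, fewer cells of a type and less RNA per cell cannot be told apart. Of 9 tested Kupffer cell and macrophage markers, 2 (Adgre1 and Lyz2) fell at day 1, 1 (Lyz2) at day 2 and 0 at 18 h, where 29.5%, 0.705% and 1.17% of all genes passed. Their summed intensity was 4566 to 7297 in day 1 ozone livers, against 5783 to 7058 in day 1 air livers. It was 3679 to 5231 in day 2 ozone livers, against 4285 to 7143 in day 2 air livers. At 18 h, where Klf9 and Errfi1 were lower in ozone, the sums were 4100 to 5308 in ozone and 5448 to 6097 in air, and did not overlap. None of these markers was at or below the nonspecific-binding level, and their part in the results on Klf9 and Errfi1 was not tested. The 9 hepatocyte markers summed to 57614 to 63371 in 18 h ozone livers and 61995 to 64722 in 18 h air livers, which overlapped, and none of them passed at that time, while 1 (Ass1) rose at day 1. Among markers of other cells, Ly86 (1 of 3 tested for neutrophils and monocytes), Lrat (1 of 9 for stellate cells and fibroblasts), Tek and Stab2 (2 of 6 for endothelium) and Epcam (1 of 4 for cholangiocytes) fell at day 1, none passed at day 2, and Stab2 rose at 18 h. None of 9 lymphocyte markers and not the single erythroid marker tested passed at any of the 3 times. The part of these cells in the results on the members was not tested.

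Sgk1 encodes a serine/threonine kinase that regulates ion transport and cell survival and is induced by glucocorticoids and by serum. At day 1 its lowest, median and highest values were 294, 346 and 463 units in ozone livers and 221, 313 and 355 in air livers (Entrez gene 29517), a log2 difference of 0.22 ± 0.28 (limma adjusted p = 0.6). At day 2 the ozone livers had 321, 318, 339, 271 and 334 units and the air livers 357, 328, 274, 248 and 260, a difference of 0.11 ± 0.31 (adjusted p = 0.98). At 18 h the ozone livers had 278, 383, 329, 241 and 247, and the air livers 302, 1915, 243, 252 and 307. The ranges overlapped at each time, and the 18 h air replicate 2 liver stood far above all 31 other arrays. The 18 h difference of -0.47 ± 0.31 (limma adjusted p = 0.6) turned to 0.08 without that array. By mean, 18 h air came first and then day 1 ozone, day 2 ozone, day 1 air, 18 h ozone and day 2 air, and since the errors above share the spread that this array gives, they are wide for Sgk1 at all times.

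Per1 encodes a repressor of the circadian clock whose gene is also a direct target of the receptor. It had the smallest standard errors of the 7 members. At day 1 the lowest, median and highest were 280, 332 and 351 units in ozone livers and 289, 313 and 373 in air livers (Entrez gene 287422). At day 2 they were 371, 363, 361, 340 and 275 in ozone and 302, 350, 370, 348 and 329 in air. The ranges overlapped at both times, with differences of 0.01 ± 0.07 at day 1 (limma adjusted p = 0.94; 95% interval -0.13 to 0.15) and 0.00 ± 0.08 at day 2 (adjusted p = 1; 95% interval -0.15 to 0.16).

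At 18 h Per1 read 273, 315, 286, 263 and 277 units in ozone livers and 303, 288, 331, 335 and 358 in air livers. Ozone replicate 2 lay among the air livers, and the other 4 ozone livers lay below every air liver. The difference was -0.18 ± 0.08 (SE, n = 5 and 5; limma adjusted p = 0.3). Within ozone livers Per1 fell between day 2 and 18 h, to 283 ± 19.7 units at 18 h, against 342 ± 39 units at day 2 (SD, n = 5 each), a log2 difference of -0.25 ± 0.08 with an adjusted p of 0.028. That call was lost (adjusted p between 0.058 and 0.087) without day 2 ozone replicate 1, 2, 3 or 4 or 18 h ozone replicate 1, 4 or 5. In air livers the same change of Per1 was -0.07 ± 0.08 (limma adjusted p = 0.87). The ozone effect on Per1 at 18 h minus that at day 2 was -0.18 ± 0.11 and did not pass (adjusted p = 0.69). By mean the order was day 2 ozone, day 2 air, day 1 ozone, day 1 air, 18 h air and 18 h ozone, with all neighbours overlapping.

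Across the 32 arrays, the genes whose log2 levels ran most like each member are given as a description, by Pearson's r. The other members and genes with provisional names (LOC or RGD and a number) were left out of this ranking. How closely the members ran with each other is therefore not given here. The arrays share groups, so r holds the exposure and time differences as well as the spread within groups. Fkbp5 ran most like Slc49a4 (r = 0.93), Pcyt1a (0.92), which makes a precursor of phosphatidylcholine, and Edem1 (0.92), which takes part in the breakdown of misfolded proteins in the endoplasmic reticulum. Klf9 ran most like the metallothionein Mt2A, the mitochondrial sulfur dioxygenase Ethe1 and the lysolipid transporter Mfsd2a (r = 0.89 each). Per1 ran most like Tat (r = 0.80), the clock-driven gene Noct (0.80) and the ubiquitin protease Usp2 (0.78). Tat encodes the tyrosine aminotransferase and is a classical glucocorticoid target of the liver.

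Tsc22d3 ran most like Ppp1r15b (r = 0.75), Ddit4 (0.74) and Magi1 (0.74), of which Ddit4 is an inhibitor of mTOR signalling. Dusp1 ran most like Zfp36 (r = 0.79), whose protein destabilises inflammatory mRNAs, Ppp1r15a (0.67) and the NF-κB inhibitor Nfkbia (0.66). Errfi1 ran most like Akr7a2 (r = 0.80), Slc39a4 (0.80) and Pim3 (0.78). Sgk1 ran most like Cebpd (r = 0.92), Tifa (0.89) and Enc1 (0.88), but without 18 h air replicate 2 those were 0.53, 0.42 and 0.43. On that array Cebpd read 998 units, against 173 to 187 in the other 4 livers of its group, so a high value there was not limited to Sgk1.

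The rest of the pathway was described by lists. Among 10 tested genes of the receptor and its chaperones and coregulators, 0 rose and 6 fell at day 1, where 29.5% of all genes passed. The 4 with the smallest p were Hspa8 (log2 difference -0.64 ± 0.11, limma adjusted p = 4.6e-05), Hsp90ab1 (-0.41 ± 0.08, adjusted p = 0.00026), Ptges3 (-0.32 ± 0.07, adjusted p = 0.00067) and Stip1 (-0.23 ± 0.06, adjusted p = 0.0048). These encode a chaperone that loads clients, an Hsp90, the cochaperone p23 and the adaptor between both chaperones. Nr3c1, the receptor itself, named here after its value was seen, fell as well, by 0.38 ± 0.10 on the log2 scale (adjusted p = 0.0051). Fkbp4, the cochaperone that Fkbp5 competes with, was at -0.14 ± 0.09 and did not pass (adjusted p = 0.25; also named after its value was seen). None of the 10 passed at day 2 or 18 h, and the median of their differences was -0.26 at day 1 (0.00 over all genes), 0.02 at day 2 and 0.05 at 18 h.

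Of 4 tested genes that supply or clear corticosteroid in the liver, 0 passed at day 1 and at 18 h, and 1 rose at day 2. It was Hsd11b1, whose enzyme regenerates active corticosterone from its inert form, with a difference of 0.27 ± 0.07 (limma adjusted p = 0.049). At day 2, 82 of all genes (0.705%) passed, but 1 with only the compared groups and 6 with the replicate number as a block. Whether Hsd11b1 was among those few is not given here. The ozone effect on Hsd11b1 was also greater at day 2 than at day 1, by 0.36 ± 0.09 (adjusted p = 0.017). In that comparison 5.09% of all genes passed. No member passed that comparison.

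Of 27 other genes known to be induced by glucocorticoids, 9 rose and 3 fell at day 1 (29.5% of all genes passed), and their median difference was 0.23, against 0.00 over all genes. The 4 with the smallest p were Cdkn1a, the cell cycle inhibitor p21 (1.75 ± 0.18, limma adjusted p = 5.5e-08), Got1, an aspartate aminotransferase of gluconeogenesis (2.25 ± 0.32, adjusted p = 4e-06), Tdo2, tryptophan dioxygenase (0.49 ± 0.08, adjusted p = 1.5e-05), and Pck1, the gluconeogenic PEP carboxykinase, which fell (-0.37 ± 0.06, adjusted p = 3.1e-05). At day 2, 1 rose (Gpt, alanine aminotransferase, 0.54 ± 0.13, adjusted p = 0.045), where 0.705% of all genes passed. Only 1 gene passed at day 2 with only the compared groups, and whether it was Gpt is not given here. At 18 h none of the 27 passed, with a median of -0.13. Within ozone livers between day 2 and 18 h, where Klf9 and Per1 fell, 1 of the 27 rose and 8 fell (11.3% of all genes passed), among them Sds (-2.72 ± 0.39, adjusted p = 0.00012), Got1 (-2.20 ± 0.35, adjusted p = 0.00025), Mt2A (-1.20 ± 0.23, adjusted p = 0.0013) and Tat (-1.16 ± 0.25, adjusted p = 0.0035). This comparison shares its arrays with both ozone and air comparisons at those times. The median of the 27 was -0.16 in it. In air livers over the same interval 0 of the 27 passed (0.120% of all genes did), with a median of -0.00077. For the change of the ozone effect between day 2 and 18 h, 0 of the 27 passed as well, beside 0.00860% of all genes. The falls within ozone livers are therefore not shown to differ from the change in air livers.

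**Figure D4:**
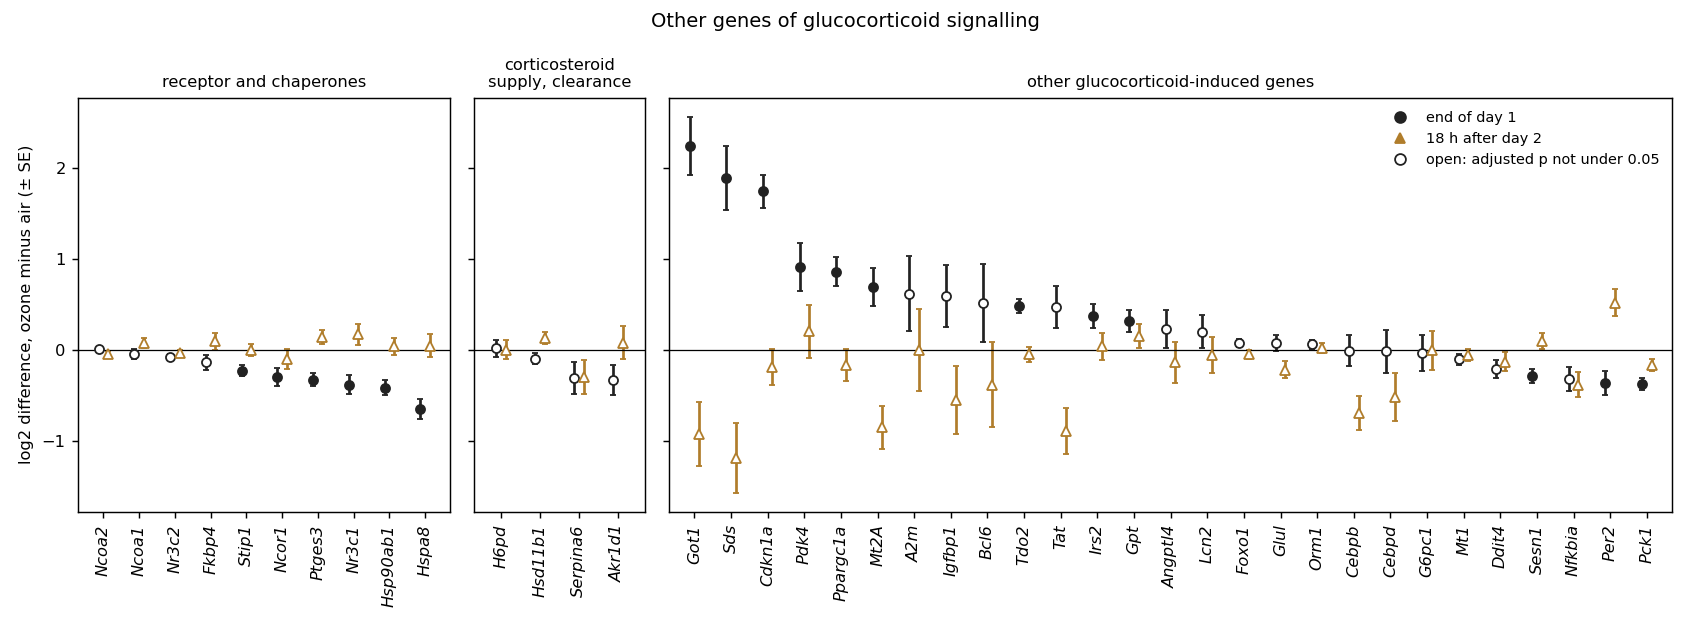
Log2 difference of ozone minus air (± SE from limma) at day 1 and at 18 h for the other genes of the pathway, in 3 lists; filled symbols passed at an adjusted p under 0.05. At day 1, 6 of 10 receptor and chaperone genes fell, and of 27 other induced genes 9 rose and 3 fell. At that time 29.5% of all tested genes passed. At 18 h none of the 3 lists had a gene that passed, beside 1.17% of all genes.

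Members with a role outside the hormone pathway were set beside the genes of that role. Of 14 tested immediate early genes, the class to which Dusp1 belongs, 1 rose (Ier3, 0.62 ± 0.23, limma adjusted p = 0.039) and 1 fell (Myc, -0.61 ± 0.17, adjusted p = 0.0069) at day 1, and none passed at day 2 or 18 h. That count of 2 at day 1 is a lower share than the 29.5% of all genes. Of 13 tested clock genes, the class of Per1, 2 rose and 5 fell at day 1, beside the same 29.5%. The 4 with the smallest p were Bmal1 (0.51 ± 0.08, adjusted p = 9.7e-06), which activates the Per genes, Nr1d2 (-0.58 ± 0.12, adjusted p = 0.00025), Dbp (-1.10 ± 0.23, adjusted p = 0.00053) and Nfil3 (0.79 ± 0.18, adjusted p = 0.00082). Cry1, the partner of the Per proteins, rose at day 2 (0.43 ± 0.09, adjusted p = 0.043) and at 18 h (0.58 ± 0.09, adjusted p = 0.0033). It was the 1 call among the 13 at each of these times, where 0.705% and 1.17% of all genes passed. With only the compared groups, 1 gene passed at each time, and whether it was Cry1 is not given here. Per1 did not pass at any of the 3 times.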

How the data were processed

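Total liver RNA was measured on 32 single-colour Affymetrix HT-Rat-230 PM arrays. The deposited values are probe-set intensity values on a linear scale, which the authors made with the PLIER algorithm and Expression Console of Affymetrix (submitters' processing notes). Versions, background correction and scaling: not given in the sources used here. Intensities ran between 30.5 and 15558. Residual background makes fold changes of dim genes too small, and the number of arrays limits precision.

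Groups came from the sample titles. Of 31139 probe sets, 97 controls, 11407 without a gene and 572 with several genes were left out, leaving 19063; Entrez identifiers of 18983 were found in the RefSeq table. The brightest probe set stood for its gene if its mean reached the 25th percentile of all. Values were taken as log2(intensity + 16), the offset being added here. A model with 6 group means and 9 contrasts was fitted in R 4.3.3 with limma 3.58.1 (lmFit, eBayes with trend); p-values are two-sided, Benjamini-Hochberg adjusted over 11629 genes, threshold 0.05. Tables used pandas 2.3.3 and numpy 2.4.6 under Python 3.11.15, and figures matplotlib 3.10.9. On simulated data for day 1 (11629 genes), 96 of 100 genes changed by 0.5 and 100 of 100 changed by 1 on the log2 scale were recovered, with 7 false calls. False calls were 15 for day 2 and 11 for 18 h, where 99 and 97 of 100 changed by 0.5 were recovered. The simulated noise was drawn independently for each gene and array. It held no deviations shared by many genes, as the 7 arrays closer to another group had, so these rates need not hold for the real data.

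Replicate numbers recur across groups: of 16 pairs of equal number 2 correlated over 0.1 (lowest -0.58, highest 0.26), so they were not treated as pairs. No pair of arrays was identical (correlations 0.965 to 0.997). The members, gene lists, tests and alternatives were chosen with earlier results of these data known. Every member is named. From other lists, up to 4 genes with the smallest p among those that passed are named. For likeness, the 3 genes with the highest r are named, with the other members and LOC or RGD names left out. The alternatives were other offsets (1 and 64), no filter, other scalings, no trend, only the compared groups, the mean of a gene's probe sets, the replicate number as a block, leaving out single arrays, 4 of the 7 arrays closer to another group (day 2 ozone 5, day 2 air 5, 18 h air 1 and 18 h air 5) or the 2 low in nonspecific-binding signal, and, added after seeing the data, single probe sets. Promoter motifs were counted in the RefSeq windows of 250 bases before and 50 after each start (GRCr8).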

Additional observations from a re-analysis of the deposited data

Results flagged for a closer look

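In 8 of 42 groups of member values, 1 array lay far from the others of its group by Dixon's test, where chance gives about 1 in 20. Day 2 ozone replicate 5 was low in 3 members: Tsc22d3 at 740 units (others 1007 to 1120), Dusp1 at 767 (others 2721 to 3956) and Errfi1 at 4149 (others 5193 to 5548). Day 2 air replicate 5 was high in Fkbp5, at 390 units (others 215 to 231). Sgk1 had such an array in 3 groups, at 271 units in day 2 ozone replicate 4 (others 318 to 339), at 221 in day 1 air replicate 1 (others 299 to 355) and at 1915 in 18 h air replicate 2 (others 243 to 307). On that last array Enc1 also read 995 units (others 222 to 235) and Tifa 246 (others 128 to 134). Klf9 was high in day 1 ozone replicate 3, at 3924 units (others 3318 to 3487). What set these arrays apart was not tested.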

How the results depend on the processing

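At day 1, 4 members (Fkbp5, Klf9, Tsc22d3 and Errfi1) passed in every setting except 1: without the 2 arrays low in nonspecific-binding signal 2 passed, and Tsc22d3 (-0.48) and Klf9 (0.26) did not. With single arrays left out, 3088 to 3500 genes passed at day 1, 1 to 978 genes and 0 to 1 members at day 2, and 32 to 411 genes and 0 to 2 members at 18 h. At day 2, 22 genes passed without the filter, 137 after quantile normalization, 1 with only the compared groups, 6 with the replicate block, 13 without the 2 arrays, and 1577 genes and 1 member without 4 of the 7 arrays closer to another group (day 2 ozone 5, day 2 air 5, 18 h air 1 and 18 h air 5; called the 4 arrays below), beside 82 as reported. At 18 h, 1 member passed without the filter, with median centring, with mean probe sets, with the replicate block or without the 2 arrays, and 0 with only the compared groups; 74 genes passed with median centring, 1 with only the compared groups and 576 without the 4 arrays, beside 136 as reported. For the ozone effect at day 2 minus day 1, 312 genes passed without the 4 arrays, 340 without the 2 arrays, and 295 to 892 with single arrays left out. For the effect at 18 h minus day 2, 1133 genes and 2 members passed without the 4 arrays, 0 genes with only the compared groups, mean probe sets, the replicate block or without the 2 arrays, and 0 to 216 genes and 0 to 2 members with single arrays left out. Between day 1 and day 2 in air livers, 0 genes passed with only the compared groups, 2 with the replicate block or without the 2 arrays, 3 without the 4 arrays, and 0 to 5 with single arrays left out. Between day 2 and 18 h in air livers, 8 genes passed without the filter, 6 with median centring or mean probe sets, 39 after quantile normalization, 0 with only the compared groups, 5 with the replicate block, 306 genes and 1 member without the 4 arrays, and 0 to 83 with single arrays left out. Between day 1 and day 2 in ozone livers, 1 member (Fkbp5) passed with mean probe sets, and 1049 to 1725 genes and 0 to 1 members with single arrays left out. Between day 2 and 18 h in ozone livers, 1 member (Klf9) passed with only the compared groups or the replicate block, 4 members and 2300 genes without the 4 arrays, and 645 to 1979 genes and 1 to 4 members with single arrays left out. The sign of Per1 differences near 0 turned: at day 1 to -0.025 without the 2 arrays (-0.022 to 0.049 with single arrays left out), at day 2 to -0.0087 after quantile normalization (-0.036 to 0.076), and for the effect at day 2 minus day 1 to 0.0071 with median centring, 0.057 without the 4 arrays and 0.028 without the 2 arrays (-0.046 to 0.067). At 18 h, Sgk1 ran between -0.65 and 0.078 and Dusp1 between -0.32 and 0.0089 with single arrays left out. The labels do not say whether equal replicate numbers mark shared batches. The replicate block changed no other count of members. The 4 arrays were dropped for lying near another group, which by itself widens the gaps. Why the other counts moved was not tested.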
